A study of Homo sapiens with 6 samples.

Results

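The Hippo pathway and its transcriptional output were examined in TE-1 cells, an established line of human esophageal squamous cell carcinoma, through 10 genes: the coactivators YAP1 and WWTR1 (which encodes TAZ), the DNA-binding partners TEAD1, TEAD3 and TEAD4, the kinases LATS1 and LATS2, the inhibitor AMOTL2, and the target genes ANKRD1 and CYR61 (now also named CCN1). The genes were chosen by symbol, with earlier results of these data known, and all 10 were among the 12180 genes of the gene table. The transcript table listed 35 of their transcripts among 33090. All 10 genes and 34 of the 35 transcripts had the mean of at least 0.5 FPKM (fragments per kilobase of transcript, scaled to the fragments of the library) required for testing, and TEAD4-208 did not.

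Messenger RNA was sequenced from 3 control libraries (NC) and 3 libraries of TE-1 cells made to overexpress FGL1 (FGL1-OE), a secreted fibrinogen-like protein, in a study of how FGL1 affects migration and invasion. The control libraries carry the genotype label WT. In the study's methods the FGL1-OE cells received the gene by lentivirus and the NC cells received nonsense sequences, and irradiation is not among the labels of any of the 6 libraries. No label states that the 3 libraries of a group came from separate cultures, so the p-values measure the spread between these libraries, which may be technical. All libraries come from 1 cell line.

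In the Hippo pathway, the MST kinases with SAV1 activate the LATS kinases, and the LATS kinases phosphorylate YAP and TAZ, which are then held in the cytoplasm by 14-3-3 proteins or degraded. Unphosphorylated YAP and TAZ enter the nucleus and bind TEAD factors, which recognise DNA, and so switch on genes such as CYR61, CTGF and ANKRD1. AMOTL2 and LATS2 are targets of YAP that also restrain it, and YAP1 is frequently amplified in squamous carcinomas. This regulation acts mainly on proteins, which RNA levels do not measure.

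FGL1 was at 0.0202, 0 and 0.106 FPKM in NC 1, NC 2 and NC 3 and at 33.5, 39.3 and 39.9 FPKM in FGL1-OE 1, FGL1-OE 2 and FGL1-OE 3, so that FGL1 separated the libraries as they are labelled. The log2 fold change, taken here and below as FGL1-OE minus NC on the log2(FPKM + 1) scale, was 5.21 ± 0.15 (SE; limma, Benjamini-Hochberg adjusted p = 1.29e-05 across 12017 genes). FGL1 was the only gene with an adjusted p under 0.05, which is 0.00832% of the genes tested, while 242 genes (2.01%) had an unadjusted p under 0.05. The NC libraries were the more heterogeneous group. Pearson's r over all tested genes was 0.885 between NC 1 and NC 2, 0.964 between NC 1 and NC 3 and 0.950 between NC 2 and NC 3. Pairs of FGL1-OE libraries had r of 0.981 to 0.986. With the FGL1-OE libraries NC 3 had r of 0.978 to 0.982 and NC 2 of 0.955 to 0.971, above their r with other NC libraries. NC 1 had r of 0.935 to 0.953 with them, below its r with NC 3. Of the squamous epithelial markers 10 of 12 were listed, with KRT5 at 4.27 to 6.24 FPKM and TP63 at only 0.299 to 0.779 FPKM. KRT14 and SOX2 were not listed, while the keratins KRT8, KRT18 and KRT19 reached 218 to 917 FPKM. The summed level of the list was 1223 to 2227 FPKM in NC and 1665 to 1967 FPKM in FGL1-OE. Most of this sum was KRT8, KRT18 and KRT19 in each library, so it says little of KRT5, KRT14, TP63 or SOX2. KRT6A and CDH1 were the 2 of the list's 9 tested genes with an unadjusted p under 0.05, both higher in FGL1-OE. Endothelial markers were listed in 0 of 4 cases, fibroblast markers in 3 of 8 (2.29 to 8.11 FPKM in all in NC, 3.24 to 8.27 in the FGL1-OE libraries) and immune markers in 2 of 6 (CD68 and CD14; 3.11 to 6.06 FPKM in all in NC, 3.62 to 5.67 in FGL1-OE). Their part in the results on the Hippo genes was not tested.

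No Hippo member had an adjusted p under 0.05 at the gene level (limma, adjusted p = 1.00 for each of the 10). At an unadjusted p under 0.05, 2 of the 10 were called, CYR61 and TEAD1, both higher in FGL1-OE, against 2.01% of all genes in either direction and 1.21% of all genes in that direction. The opposite direction held 0 members and 0.807% of all genes. In bulk RNA, more RNA per cell and more cells of a kind cannot be told apart. The groups did not overlap for these same 2 members, against 7.15% of all genes. The log2 fold change was above 0 for 7 members and below 0 for 3, with a median of 0.11 beside 0.016 over all genes tested. For 5 members (YAP1, WWTR1, TEAD3, LATS1 and ANKRD1) the 3 FGL1-OE values all lay inside the NC range, as they did for 57.0% of all genes.

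**Figure D1:**
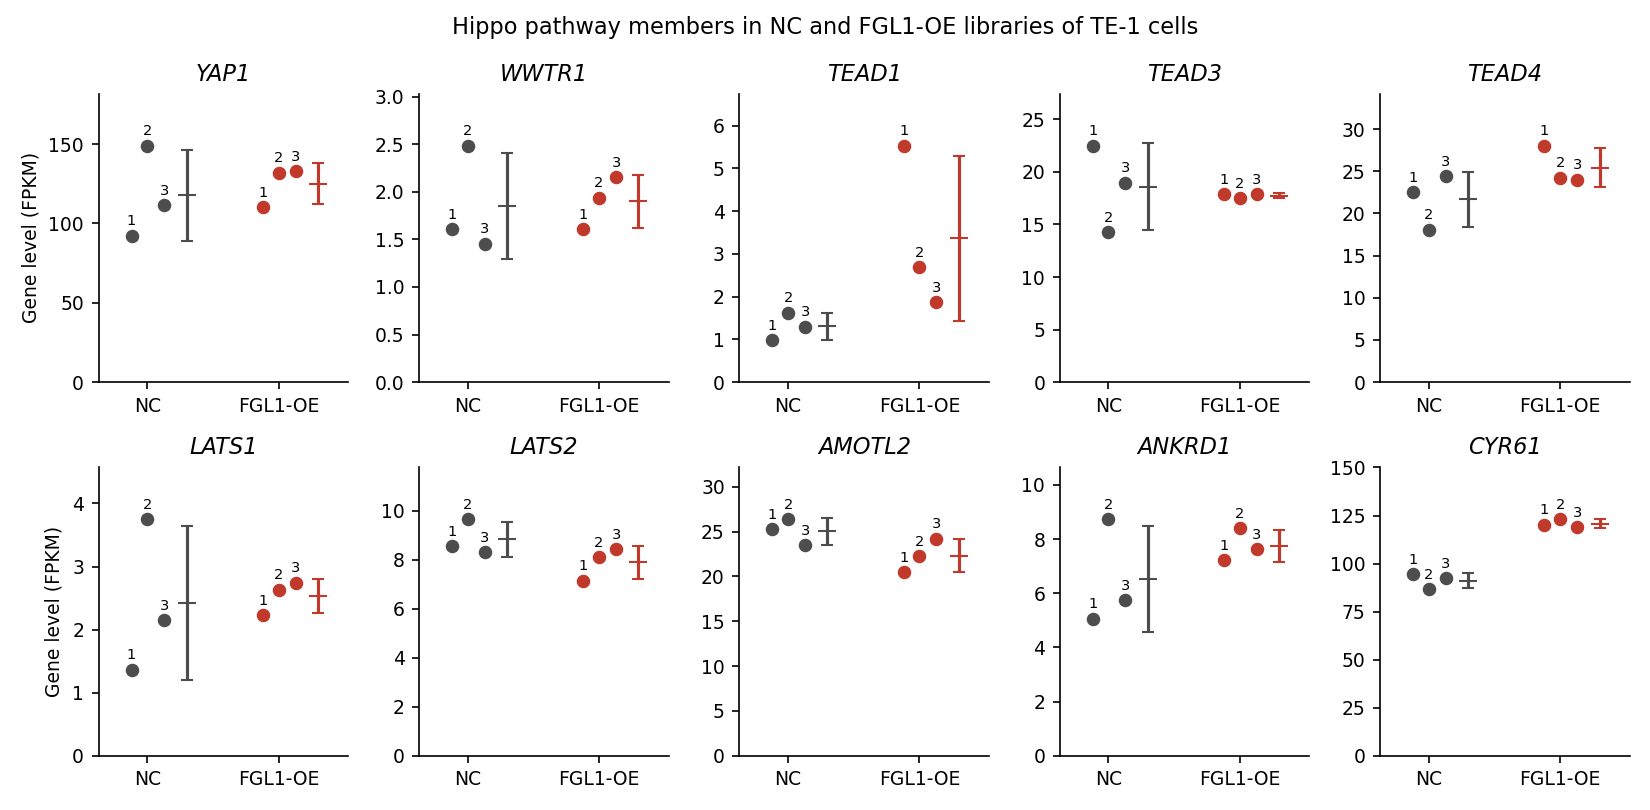
Gene level in FPKM (vertical axes, each starting at 0) of the 10 Hippo members in the 3 NC libraries (grey) and the 3 FGL1-OE libraries (red). Points are libraries with their replicate numbers, and the bars to their right give the mean ± SD; CYR61 and TEAD1 are the members whose groups do not overlap, and NC 2 is the highest or lowest of the 6 libraries for each member except TEAD1.

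FPKM are per length, so levels can be set side by side between genes. By the mean of the 6 libraries the order was YAP1 (121 FPKM), CYR61 (106), AMOTL2 (23.7), TEAD4 (23.5), TEAD3 (18.2), LATS2 (8.36), ANKRD1 (7.13), LATS1 (2.48), TEAD1 (2.33) and WWTR1 (1.87). The ranges over the 6 libraries were apart at only 3 steps of this order: between CYR61 and AMOTL2, between TEAD3 and LATS2, and between ANKRD1 and LATS1. All other neighbours overlapped. Within each library, YAP1 stood 57.4 to 76.6 times above WWTR1, so that YAP1 was the abundant coactivator RNA in TE-1 cells irrespective of FGL1. LATS2 stood 2.57 to 6.27 times above LATS1, with the lowest ratio in NC 2 and the highest in NC 1.

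YAP1, the central coactivator of the pathway (ENSG00000137693, chr11:101981192-102104154, GRCh37), was at 92.3, 149 and 111 FPKM in NC 1 to 3 and at 110, 132 and 133 FPKM in FGL1-OE 1 to 3. NC 1 was the lowest and NC 2 the highest of the 6 libraries, and all FGL1-OE libraries lay between them. The means were 118 ± 28.9 FPKM in NC and 125 ± 12.8 in FGL1-OE (SD, n = 3 each), and the log2 fold change of 0.11 ± 0.21 (SE) was smaller than its error. It was -0.049 without NC 1 and 0.29 without NC 2.

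WWTR1, which encodes the paralog TAZ (ENSG00000018408, chr3:149235022-149454501), was at 1.61, 2.49 and 1.45 FPKM in NC and at 1.61, 1.94 and 2.15 FPKM in FGL1-OE. NC 2 was again the highest library. For WWTR1 the log2 fold change was 0.037 ± 0.18 (SE), and its sign changed when NC 1, NC 3 or FGL1-OE 3 was left out.

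TEAD1 (ENSG00000187079, chr11:12696138-12966030), a DNA-binding factor that carries YAP and TAZ to their target genes, was at 0.980, 1.63 and 1.30 FPKM in NC and at 5.53, 2.69 and 1.87 FPKM in FGL1-OE. Every FGL1-OE library was above every NC library, and FGL1-OE 1 stood well above the other two. The ratio of means was 2.58 and the log2 fold change 0.84 ± 0.30 (SE), with an unadjusted limma p of 0.0239. An exact two-sided permutation test over the libraries gave p = 0.1, the smallest value that 3 against 3 allows. Without FGL1-OE 1 the log2 fold change fell to 0.51, and the unadjusted limma p was 0.0571 without FGL1-OE 1, 0.0582 without NC 1 and 0.0609 without NC 3.

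TEAD3 (ENSG00000007866, chr6:35441374-35464853) was at 22.5, 14.3 and 19.0 FPKM in NC and at 17.9, 17.5 and 17.9 FPKM in FGL1-OE. The FGL1-OE values were nearly equal and sat between NC 2, the lowest library, and NC 3. Its log2 fold change was -0.041 ± 0.19 (SE).

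TEAD4 (ENSG00000197905, chr12:3068496-3149839) was at 22.5, 18.1 and 24.4 FPKM in NC and at 28.0, 24.2 and 24.0 FPKM in FGL1-OE. FGL1-OE 1 was the highest library and NC 2 the lowest, while NC 3 lay above FGL1-OE 2 and FGL1-OE 3. TEAD4 had a log2 fold change of 0.23 ± 0.17 (SE; exact permutation p = 0.3). This was 0.28, with an unadjusted limma p of 0.0481, once the trend with GC content and transcript length was removed, an alternative chosen after seeing the data, under which 6.45% of all genes had an unadjusted p under 0.05.

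LATS1 (ENSG00000131023, chr6:149979289-150039392), a kinase that phosphorylates YAP and TAZ, was at 1.36, 3.75 and 2.15 FPKM in NC and at 2.23, 2.63 and 2.75 FPKM in FGL1-OE. Of all members it had the widest gap between NC 1 and NC 2, at 2.75-fold, and the FGL1-OE libraries fell inside it. The difference between the groups, a log2 fold change of 0.10 ± 0.25 (SE), was -0.13 without NC 1 and 0.37 without NC 2.

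LATS2 (ENSG00000150457, chr13:21547171-21635686), the sister kinase and itself a YAP target, was at 8.54, 9.66 and 8.31 FPKM in NC and at 7.14, 8.10 and 8.42 FPKM in FGL1-OE. FGL1-OE 3 lay above NC 3, so the groups overlapped. LATS2 had a log2 fold change of -0.15 ± 0.15 (SE; exact permutation p = 0.2), and it stayed below 0 with any library left out.

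AMOTL2 (ENSG00000114019, chr3:134074716-134094321), an angiomotin-family protein that binds YAP and keeps it out of the nucleus, was at 25.2, 26.4 and 23.5 FPKM in NC and at 20.5, 22.3 and 24.2 FPKM in FGL1-OE. FGL1-OE 3 again lay above NC 3. AMOTL2 had a log2 fold change of -0.16 ± 0.14 (SE; exact permutation p = 0.2), which was likewise below 0 with any library left out. When the gene value was the sum of its listed transcripts it was -0.36, with an unadjusted limma p of 0.0711. These sums were 31.2, 30.5 and 27.9 FPKM in the NC libraries and 24.2, 22.4 and 22.8 FPKM in the FGL1-OE libraries, and on them the groups did not overlap.

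ANKRD1 (ENSG00000148677, chr10:92671853-92681033), a muscle ankyrin repeat protein widely used as a readout of YAP activity, was at 5.07, 8.74 and 5.74 FPKM in NC and at 7.23, 8.40 and 7.63 FPKM in FGL1-OE. NC 2 was the highest library, and the 3 FGL1-OE values lay between it and the other NC libraries. For ANKRD1 the log2 fold change was 0.25 ± 0.20 (SE; exact permutation p = 0.4). It was 0.11 without NC 1, and without NC 2 it was 0.45, with an unadjusted limma p of 0.0116. When NC 2 was left out, 21.8% of all genes had an unadjusted p under 0.05.

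CYR61 (ENSG00000142871, chr1:86046444-86049645), a secreted matricellular protein and a canonical YAP target, was at 94.4, 86.7 and 92.2 FPKM in NC and at 120, 123 and 119 FPKM in FGL1-OE. The groups were apart and each was tight, with means of 91.1 ± 3.97 and 121 ± 2.15 FPKM (SD, n = 3 each), a ratio of 1.33. For CYR61 the log2 fold change was 0.40 ± 0.13 (SE), with an unadjusted limma p of 0.0183 and an exact permutation p of 0.1, the smallest possible. It ranged only from 0.37 to 0.43 over the libraries left out in turn. The unadjusted limma p was 0.0540, 0.0733 and 0.0669 without FGL1-OE 1, 2 and 3. Adjusted over all genes, the limma p of CYR61 was between 0.195 and 1.00 under every alternative tried.

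**Figure D2:**
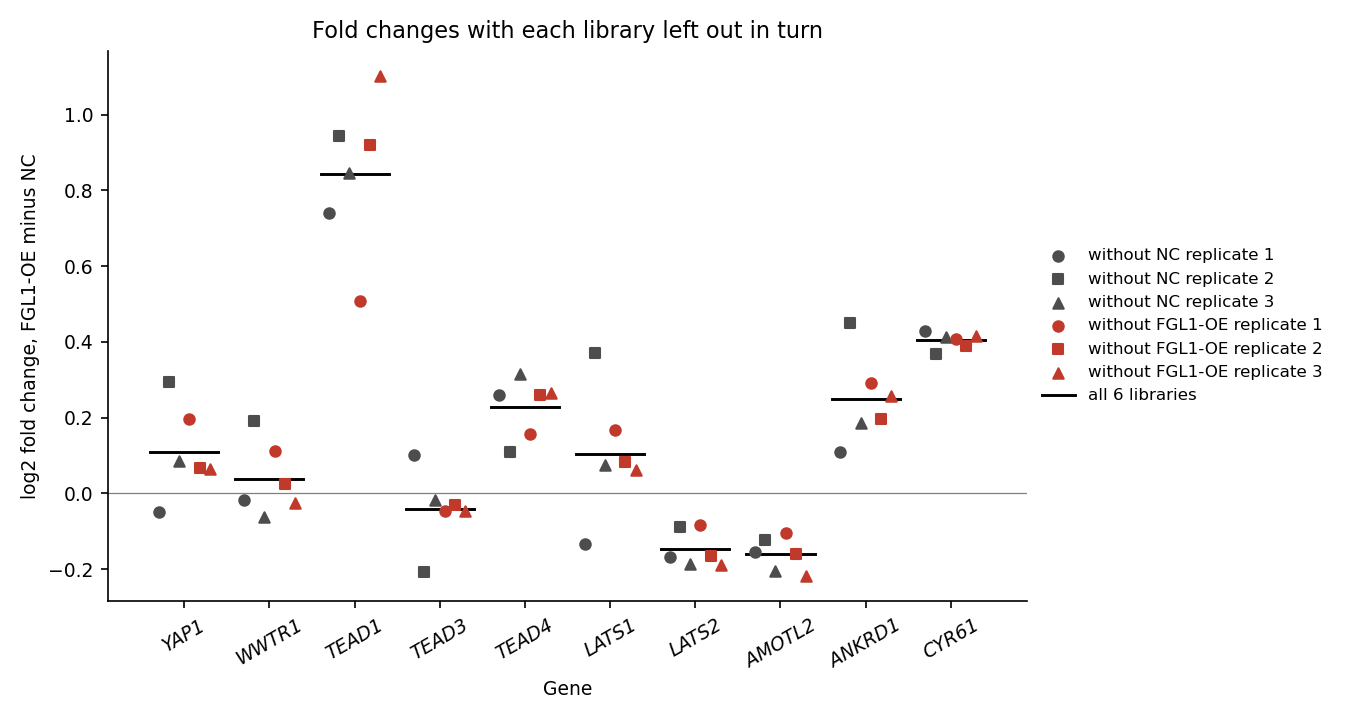
The log2 fold change (FGL1-OE minus NC, log2(FPKM + 1) scale) of each member with all 6 libraries (black lines) and with each library left out in turn (symbols; grey for NC, red for FGL1-OE). CYR61 stays between 0.37 and 0.43, TEAD1 drops to 0.51 without FGL1-OE 1, and YAP1, WWTR1, TEAD3 and LATS1 cross 0.

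The spread of the members between NC libraries moved with base composition. The log2 difference between NC 2 and NC 1 ran from 0.41 to 1.01 for the members with the lowest GC content, LATS1 (39.7% GC in its most abundant transcript), WWTR1 (40.9%), TEAD1 (41.3%), ANKRD1 (43.3%) and YAP1 (43.4%), and below 0 for CYR61 (50.3%), TEAD3 (59.8%) and TEAD4 (60.7%). LATS2 (51.8%) and AMOTL2 (57.2%) departed from this order, with more GC than CYR61 and differences of 0.16 and 0.062. Across the 10 members Pearson's r between GC content and this difference was -0.89, across 67 genes of the pathway -0.82, and across 11775 genes with a GC value -0.76. These are correlations across genes, which share the same pair of libraries and are not independent replicates. Of the pathway genes under 50% GC, 34 of 39 were higher in NC 2 than in NC 1, with a median log2 difference of 0.57. At 50% GC or more, 7 of 28 were higher in NC 2, with a median of -0.50.

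**Figure D3:**
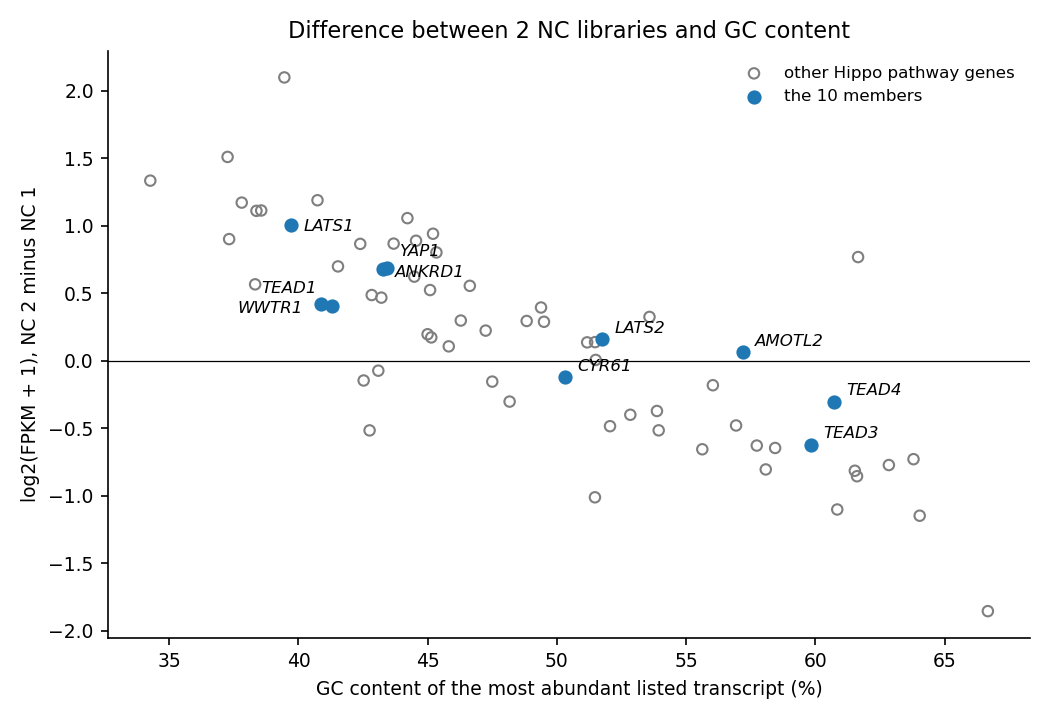
Difference between NC 2 and NC 1 in log2(FPKM + 1) (vertical axis) against the GC content in percent of the most abundant listed transcript (horizontal axis), for the 10 members (blue) and the other genes of the pathway lists (open circles). The points fall from left to right with scatter (r = -0.82 over 67 genes): 34 of 39 genes under 50% GC lie above 0, and so do 7 of 28 at 50% GC or more.

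NC 1 and NC 2 were the lowest and highest of the 6 libraries, in either order, for 4 of the 10 members (YAP1, TEAD3, LATS1 and ANKRD1) and for 47.7% of all genes. On the log2 scale the median SD of the members was 0.24 in NC and 0.11 in FGL1-OE, beside 0.31 and 0.12 over all genes tested. The SD was larger in NC for 7 members and for 84.1% of all genes. With the trend of GC content and length removed, CYR61 had a log2 fold change of 0.37 with an unadjusted limma p of 0.00620, and TEAD1 of 0.79 with an unadjusted limma p of 0.0497, where 6.45% of all genes were under 0.05 beside 2.01% without this step.

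Genes among those most like YAP1 over the 6 libraries, by Pearson's r of log2(FPKM + 1) among 10974 genes with a mean of at least 1 FPKM, were ATXN2 (r = 0.9993), DNTTIP2 (0.9981), KLF12 (0.9980) and ETAA1 (0.9980). ATXN2 is an RNA-binding protein and KLF12 a zinc finger transcription factor. In each of these genes NC 1 was the lowest library and NC 2 the highest, the order of YAP1 itself. That shared order follows from their choice by r with YAP1. Over all genes NC 1 and NC 2 were the extremes, in either order, for 47.7%.

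A set of 5 lists of pathway genes, 72 genes in all, places the members among their neighbours, and 67 of these genes were listed and tested. The lists were chosen with earlier results of these data known, so their counts beside the share of all genes are descriptions and not an independent comparison. An unadjusted p under 0.05 was reached by 4 genes, YWHAB, TEAD1, CTGF and CYR61, all higher in FGL1-OE, and by 0 in the other direction, beside 1.21% and 0.807% of all genes. By limma with adjustment over all genes 0 of the 67 passed. The median log2 fold change of the 67 genes was 0.098, with 43 above 0. The groups did not overlap for 8 (6 higher, 2 lower), beside 7.15% of all genes, and the FGL1-OE values lay within the NC range for 38, beside 57.0%.

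Among the 15 core kinases and adaptors 0 passed the unadjusted test, with a median log2 fold change of 0.10. The extremes were TAOK1, a kinase that activates MST (0.44 ± 0.48, SE), and WWC1, the scaffold KIBRA (-0.30 ± 0.17, SE). TAOK1 was at 0.970, 7.44 and 4.34 FPKM in NC and at 4.12, 5.93 and 5.28 in FGL1-OE, all inside the NC range. WWC1 was at 20.7, 15.8 and 21.0 FPKM in NC and at 14.3, 14.9 and 16.7 in FGL1-OE, with NC 2 inside the FGL1-OE range.

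Of the inhibitors and partners of YAP and TAZ, 16 of 17 were listed (AMOT was not), and 1 was called. YWHAB, a 14-3-3 protein of the family that retains phosphorylated YAP in the cytoplasm, was at 24.9, 22.4 and 44.0 FPKM in NC and at 60.7, 60.1 and 52.2 FPKM in FGL1-OE. The groups were apart, with NC 3 between the other NC libraries and FGL1-OE. YWHAB had a log2 fold change of 0.96 ± 0.26 (SE), with an unadjusted limma p of 0.00609 and an exact permutation p of 0.1. With each library left out in turn the unadjusted limma p ran from 0.000375 to 0.0238. The lowest log2 fold change of this list was that of CSNK1E, a casein kinase that marks YAP for degradation, at -0.37 ± 0.25 (SE). The median of the list was 0.010.

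Polarity and cadherin inputs were listed for 12 of 15 genes (FAT2, FAT4 and DCHS1 were not), with a median of 0.049 and 0 genes called. The extremes were the polarity scaffolds MPP5 (0.28 ± 0.28, SE) and SCRIB (-0.15 ± 0.42, SE). SCRIB was at 28.1, 7.04 and 17.2 FPKM in NC and at 14.2, 12.9 and 14.0 FPKM in FGL1-OE, with NC 1 and NC 2 at the ends of the range.

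Coactivators and TEAD factors, 6 genes with a median of 0.073, included TEAD1 as the only gene called and TEAD3 as the lowest. Among the target genes of YAP and TAZ, 21 of 22 were listed (RBMS3 was not), with a median of 0.098, and 2 were called, CYR61 and CTGF. CTGF (CCN2), the matricellular relative of CYR61, was at 5.35, 5.98 and 6.53 FPKM in NC and at 8.22, 9.57 and 7.48 FPKM in FGL1-OE. Its groups were apart, with a log2 fold change of 0.44 ± 0.16 (SE) and an unadjusted limma p of 0.0253. The unadjusted limma p was 0.0501 without NC 1, 0.0613 without FGL1-OE 1 and 0.116 without FGL1-OE 2. The extremes of the target list were ASAP1, an ARF GTPase-activating protein (0.58 ± 0.28, SE; exact permutation p = 0.2), and AXL, a receptor tyrosine kinase (-0.19 ± 0.18, SE). ASAP1 was at 4.46, 10.4 and 8.41 FPKM in NC and at 9.87, 13.1 and 11.6 FPKM in FGL1-OE, so that NC 2 overlapped the FGL1-OE libraries. Its log2 fold change was 0.27 without NC 1 and 0.042 on the sum of its listed transcripts. The targets thus included 13 genes with a log2 fold change above 0 and 8 below 0, among them the members LATS2 and AMOTL2.

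**Figure D4:**
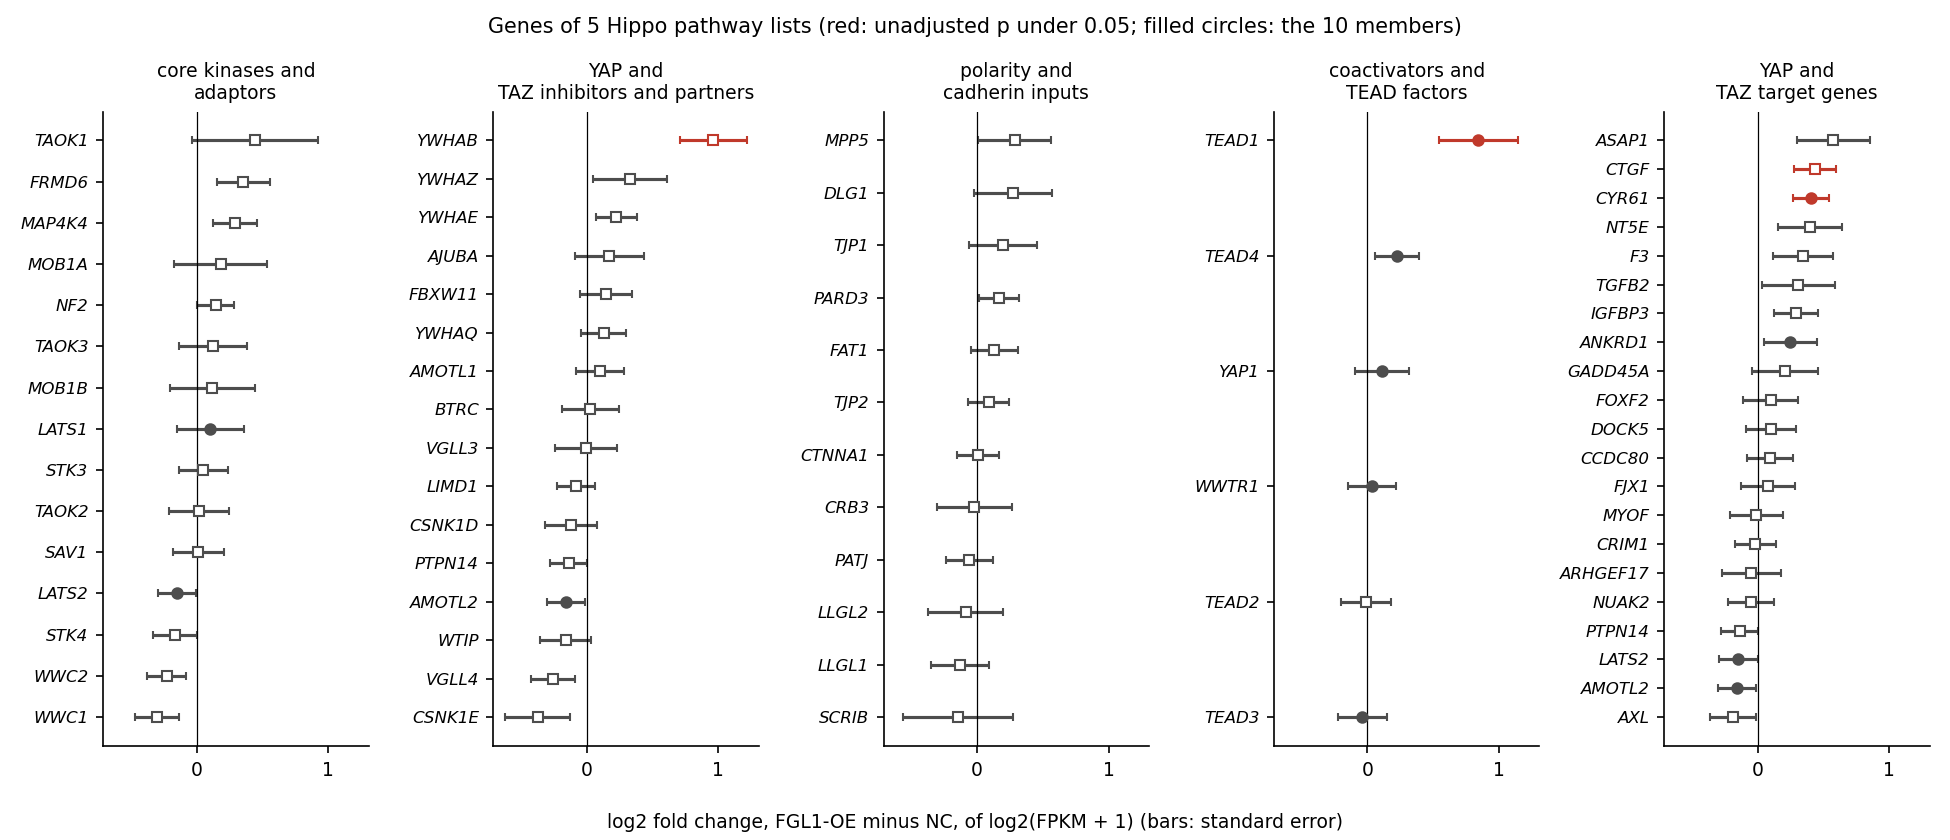
The log2 fold change (FGL1-OE minus NC, horizontal axes) with its standard error for the 67 listed genes of the 5 pathway lists, of which some stand in more than 1 list. Filled circles are the 10 members, open squares the other genes, and red marks an unadjusted limma p under 0.05, reached by YWHAB, TEAD1, CTGF and CYR61. The gene called INADL in the list is shown under its symbol PATJ.

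YAP1 transcripts differ in coding stretches that alternative splicing adds or leaves out. They are shown here because the listed level of YAP1 moved between transcripts that differ only in these stretches. The sequences were read from GENCODE 29 on GRCh38 (+ strand), to which the transcripts were matched by identifier, while the tables use GRCh37. Capitals mark the stretch and lower case the 18 bases on either side in the transcript named. Stretch 1, of 114 bases or 38 codons, lies at chr11:102186018-102186131 and belongs to the second WW domain, a module that binds PPxY motifs in partners such as LATS kinases and angiomotins. Stretch 2, of 12 bases or 4 codons, lies at chr11:102206075-102206086, and stretch 3, of 48 bases or 16 codons, at chr11:102209517-102209564. Both lie in the transactivation domain.
Stretch 1 in YAP1-201: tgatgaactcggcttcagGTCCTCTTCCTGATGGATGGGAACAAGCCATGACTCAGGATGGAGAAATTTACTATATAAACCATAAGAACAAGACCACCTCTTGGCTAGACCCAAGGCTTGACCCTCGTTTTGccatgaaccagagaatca
Stretch 2 in YAP1-202: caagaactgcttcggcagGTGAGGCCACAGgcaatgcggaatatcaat
Stretch 3 in YAP1-201: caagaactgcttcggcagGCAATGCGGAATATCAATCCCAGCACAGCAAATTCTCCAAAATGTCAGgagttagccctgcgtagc

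Of the 9 listed YAP1 transcripts, 3 took turns as the most abundant. YAP1-201, which holds stretches 1 and 3, led in NC 1 with 90.3 FPKM. YAP1-202, which holds stretches 2 and 3, led in NC 2 (145 FPKM), FGL1-OE 1 (106) and FGL1-OE 3 (123). YAP1-209, which holds stretches 1 and 2, led in NC 3 (101 FPKM) and FGL1-OE 2 (127). The leading transcript took 68.5% to 77.4% of the summed FPKM of YAP1 transcripts in its library, and the 3 together took 74.2% to 84.1%. The choice of leader did not follow the groups, since YAP1-202 and YAP1-209 each led in libraries of both.

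In the libraries where they did not lead, these transcripts were low. YAP1-201 was at 2.47 to 12.1 FPKM outside NC 1, YAP1-202 at 1.93 to 7.06 FPKM in NC 1, NC 3 and FGL1-OE 2, and YAP1-209 at 0.516 to 7.48 FPKM in NC 1, NC 2, FGL1-OE 1 and FGL1-OE 3. Their log2 fold changes were -1.62 ± 0.93, 1.23 ± 1.92 and 0.82 ± 2.01 (SE), none with an unadjusted p under 0.05. YAP1-207 was listed at 26.1 FPKM in NC 1 and at 0 in the other libraries.

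Of the words of 31 bases in YAP1-201, YAP1-202 and YAP1-209, 0% occurred in no other GENCODE transcript, so a read assigned to 1 of them can come from another. The sum of the YAP1 transcripts was 132, 195 and 138 FPKM in NC and 142, 164 and 179 FPKM in FGL1-OE, above the gene value in each library. The sum, like the gene value, was lowest in NC 1 and highest in NC 2. A change of the most abundant transcript between the 6 libraries was common in the table: it occurred in 58.4% of 8054 genes with at least 2 listed transcripts and in 2 of 6 such members, YAP1 and TEAD1.

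**Figure D5:**
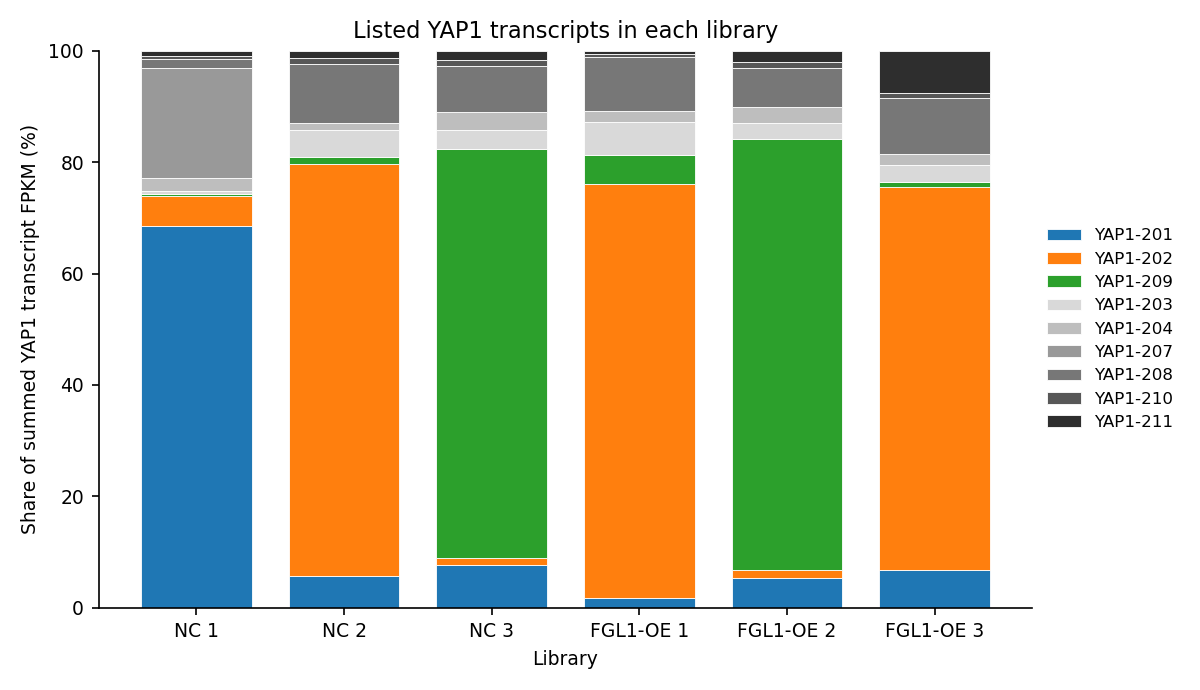
Share in percent of the summed YAP1 transcript FPKM (vertical axis) taken by each of the 9 listed transcripts in the 6 libraries. The largest share, 68.5% to 77.4%, belongs to YAP1-201 (blue) in NC 1, to YAP1-202 (orange) in NC 2, FGL1-OE 1 and FGL1-OE 3, and to YAP1-209 (green) in NC 3 and FGL1-OE 2, with the other transcripts in greys.

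Summed over the transcripts that hold or skip it, stretch 1 was included in 89.3%, 23.4% and 93.7% of their FPKM in NC 1 to 3 and in 23.2%, 93.7% and 21.7% in FGL1-OE 1 to 3. The values lay between 21.7% and 23.4% or between 89.3% and 93.7%, with libraries of both groups in each range. YAP1-207 holds stretch 1 only in part and was left out of the stretch 1 values, though it took 19.8% of the summed YAP1 transcript FPKM in NC 1. The means differed by -22.6 percentage points, with an exact permutation p of 0.5. Stretch 2 was included in 27.0%, 77.5% and 77.5% in NC and in 80.8%, 82.0% and 78.1% in FGL1-OE. All FGL1-OE libraries were above all NC libraries, by 19.6 percentage points between the means (exact permutation p = 0.1), but the difference was 2.78 points without NC 1. YAP1-207 holds stretches 2 and 3 and was counted for both. In NC 1 it gave 26.1 of the 35.6 FPKM that held stretch 2, and it was at 0 in the other libraries. Stretch 3 was included in 94.8%, 85.7% and 13.4% in NC and in 82.6%, 10.7% and 79.5% in FGL1-OE (exact permutation p = 0.5).

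At the transcript level 1 of the 34 tested transcripts had an unadjusted p under 0.05, beside 3.53% of all transcripts, and 0 had an adjusted p under 0.05 (limma), beside 0.0165%. The groups did not overlap for 3, beside 8.22%: TEAD1-203 and CYR61-201, higher in FGL1-OE, and AMOTL2-202, lower. A value of 0 in at least 1 library was listed for 7 of the 35 transcripts.

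TEAD1-203, a transcript of 8477 bases, was at 0, 1.17 and 1.11 FPKM in NC and at 6.36, 2.83 and 1.75 FPKM in FGL1-OE. On the log2 scale TEAD1-203 differed by 1.36 ± 0.49 (SE), with an unadjusted limma p of 0.0305. That p was 0.0871 without NC 1, 0.0889 without FGL1-OE 1 and 0.0603 without FGL1-OE 2. Its share of the TEAD1 transcripts was 0%, 26.0% and 30.5% in NC and 80.7%, 61.0% and 38.5% in FGL1-OE (exact permutation p = 0.1). The shorter TEAD1-206 ran the other way in NC 1, the library where TEAD1-203 was at 0. Its values were 3.62, 1.94 and 0.795 FPKM in the NC libraries and 0.949, 0.982 and 1.17 FPKM in FGL1-OE. The 4 listed TEAD1 transcripts summed to 5.15, 4.51 and 3.64 FPKM in NC and to 7.88, 4.64 and 4.54 FPKM in FGL1-OE. On these sums the groups overlapped and the log2 fold change of TEAD1 was 0.27, with an unadjusted limma p of 0.304. The gene table and the summed transcripts therefore gave different separations for TEAD1.

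AMOTL2-202 was the main AMOTL2 transcript, with 24.6, 25.2 and 22.6 FPKM in the NC libraries and 20.1, 19.5 and 19.3 FPKM in FGL1-OE. Every FGL1-OE value was below every NC value, with a log2 fold change of -0.28 ± 0.21 (SE; exact permutation p = 0.1). It took 79.0% to 82.5% of the AMOTL2 transcripts in NC and 83.2% to 87.2% in FGL1-OE.

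CYR61, ANKRD1, LATS1 and LATS2 were each listed with 1 transcript. CYR61-201 was at 101, 92.8 and 98.3 FPKM in NC and at 128, 132 and 127 FPKM in FGL1-OE, the same separation as at the gene level. Its log2 fold change was 0.41 ± 0.21 (SE; exact permutation p = 0.1). The unadjusted limma p of CYR61-201 was 0.0979 in the fit over all transcripts, beside 0.0183 for CYR61 in the fit over all genes.

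WWTR1 had 2 listed transcripts, of which WWTR1-203 took 52.4% to 83.2%. This transcript had 1.88, 3.75 and 1.72 FPKM in the NC libraries and 2.26, 2.53 and 2.66 FPKM in FGL1-OE. TEAD3-201 took 63.2% to 93.7% of TEAD3, with TEAD3-202 at 4.58 FPKM in NC 1 and 4.0 FPKM in FGL1-OE 1 and at most 0.156 FPKM in the other 4 libraries. TEAD4-201 took 58.5% to 74.4% of TEAD4 and was at 23.0, 19.9 and 26.0 FPKM in NC and at 29.9, 25.4 and 25.5 FPKM in FGL1-OE. NC 3 lay above FGL1-OE 2 and FGL1-OE 3 in TEAD4-201, as in the gene.

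Promoters were taken from RefSeq (GRCh38.p14) as 250 bases before to 50 after a gene's start, and 7 members had 10 of them. Promoters of TEAD1, TEAD4 and CYR61 were not analysed here. The TEAD motif was searched as GGAATG and the AP-1 motif, bound by factors that often accompany TEAD, as TGANTCA, each on both strands and with no overlap between their matches. The letters GGAATG stood in 4 of the 10 promoters, beside 14.0% of 35116 promoters of the same length, and those of TGANTCA in 2 (LATS1 and ANKRD1), beside 7.71%. Matches are descriptions and not binding sites. They are shown because 3 of the 4 genes (LATS2, AMOTL2 and ANKRD1) are themselves textbook targets of YAP and TEAD, with the motif in capitals and 12 bases on either side, each read along the gene's own strand. The base number given is that of the first capital, while the coordinates cover the whole printed window.
YAP1 promoter, from base -162, chr11:102110273-102110302, + strand: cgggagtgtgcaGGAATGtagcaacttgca
LATS2 promoter, from base 10, chr13:21061560-21061589, - strand: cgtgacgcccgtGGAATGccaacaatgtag
AMOTL2 second promoter, from base -69, chr3:134374499-134374528, - strand, motif on the opposite strand: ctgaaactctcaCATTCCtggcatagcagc
ANKRD1 promoter, from base -220, chr10:90921290-90921319, - strand: atcaccaccaaaGGAATGgccctctcacat
ANKRD1 promoter, from base -128, chr10:90921198-90921227, - strand: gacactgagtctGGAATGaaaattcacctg
The members with the letters had log2 fold changes of 0.11 (YAP1), -0.15 (LATS2), -0.16 (AMOTL2) and 0.25 (ANKRD1), so they differed in sign.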

How the data were processed

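Oligo(dT)-enriched mRNA of 3 NC and 3 FGL1-OE libraries was sequenced. The authors deposited FPKM per library for genes and for transcripts. StringTie and GRCh37 are named in the submitters' processing notes, and the aligner, annotation release and StringTie version are not given in the sources used here. The deposited tables also hold the authors' own comparison, with log2 fold changes, log2 group means, linear fold ratios and p-values with q-values, and none of these columns was used.

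Groups were taken from the genotype labels. Values were tested as log2(FPKM + 1) with limma 3.58.1 (R 4.3.3), without covariates, over the 12017 genes or 30330 transcripts that averaged 0.5 FPKM or more, with Benjamini-Hochberg adjustment over all of them. Single values were compared by exact two-sided permutation tests. FPKM gave no whole-read steps, so the depth is unknown and no counting interval is given. Low FPKM are the least precise, and their fold changes are understated by the pseudocount. The fit was tested on simulated data with independent genes and the same spread in both groups. The NC libraries here spread more than the FGL1-OE libraries, a case the simulation does not test.

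The members and lists were chosen with earlier results of these data known. Named were the 10 members with their transcripts, FGL1, each pathway-list gene with an unadjusted p under 0.05, the largest rise and fall of each list, and the 5 genes most correlated with YAP1, of which 1 is not reported here. KRT6A, CDH1 and the other markers were named after their values were seen. GC content and length came from GENCODE 29 (GRCh38), matched by transcript identifier, for 98.0% of the tested genes. Strand-specific counting is not stated. Alternatives were another pseudocount, other filters and scalings, a replicate block, summed transcripts, each library left out, and removal of the GC and length trend.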

Additional observations from a re-analysis of the deposited data

How the results depend on the processing

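With no adjustment, 2 members were called at the gene level, beside 2.01% of all genes. The number was 1 when the gene value was the sum of its listed transcripts, beside 2.78% of all genes in that fit. Over the libraries left out in turn it was 0 without FGL1-OE 1 (1.27% of all genes) and 3 without NC 2 (21.8%). It was 1 without NC 1 (2.75%), NC 3 (1.57%), FGL1-OE 2 (1.15%) or FGL1-OE 3 (1.14%). The number of member transcripts called was 1, beside 3.53% of all transcripts. It was 0 with a pseudocount of 0.1 (3.44%) and 0 with the replicate block (3.47%). Over the libraries left out it was 0 to 2, where 2.88% to 9.03% of all transcripts were called. No member passed adjustment under any alternative. The median log2 fold change of the members, 0.11, ranged from 0.042 to 0.24 over the libraries left out, with the highest value without NC 2, and was 0.050 once the GC and length trend was removed. The difference in YAP1 stretch 1 ranged from -46.3 to -10.2 percentage points, and that of FGL1 from 5.16 to 5.29 on the log2 scale. At the gene level same-numbered libraries deviated from their group means with r of 0.35, 0.28 and -0.061, and differently numbered ones with r of -0.37 to 0.14. Deviations within a group depend on each other, and whether the numbers pair the libraries was not tested. The replicate block left 2 members called at the gene level, beside 2.48% of all genes. It brought ASAP1, at a log2 fold change of 0.58, past the unadjusted threshold, with a limma p of 0.0210. On summed transcripts ASAP1 was at 0.042. Of the pathway genes, only the members and the others named by the rules above were followed through the alternatives. Among these, ANKRD1, ASAP1, CSNK1E, MPP5, SCRIB and WWC1 newly passed the unadjusted threshold without NC 2. YWHAB, TEAD1, CTGF and CYR61 still passed it, and 21.8% of all genes passed in that fit. Directions that turned belonged to values that had not passed the test. Over the libraries left out, YAP1 ranged from -0.049 to 0.29, WWTR1 from -0.062 to 0.19, TEAD3 from -0.21 to 0.10, LATS1 from -0.13 to 0.37, SCRIB from -0.65 to 0.28 and TAOK1 from -0.15 to 0.90, and among transcripts LATS1-207 from -0.17 to 0.35, TEAD3-201 from -0.18 to 0.022, WWTR1-203 from -0.089 to 0.31 and YAP1-209 from -0.77 to 2.66. Once the GC and length trend was removed, WWTR1 was at -0.027, TEAD3 at 0.013 and SCRIB at 0.015, and with summed transcripts TEAD3 was at 0.0048. The cause was not tested. The unknown depth leaves the precision of low genes such as TEAD1 and WWTR1 to the 3 libraries of each group.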

Other observations

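The 4 TEAD genes together reached 59.8, 42.5 and 56.0 FPKM in NC and 62.3, 55.3 and 54.9 FPKM in FGL1-OE, and the groups overlapped. TEAD4 took 37.7% to 45.0% of this sum and TEAD3 28.7% to 37.6%. TEAD2, which was not among the members, took 17.4% to 23.1%. TEAD1 took 1.64%, 3.84% and 2.32% in NC and 8.88%, 4.88% and 3.40% in FGL1-OE, so that NC 2 lay above FGL1-OE 3 and the groups overlapped on this scale. CYR61 was 12.9 to 17.6 times CTGF in each library, with means of 15.4 ± 1.94 in NC and 14.5 ± 1.53 in FGL1-OE (SD, n = 3 each), so the ratio of these matricellular genes varied more within groups than between them.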
